A study of Mus musculus with 2 samples.

Results

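The 9 genes described here encode the receptor, the kinases, the transcription factor and the early targets and inhibitors of signalling by leukemia inhibitory factor (LIF). They were chosen by gene symbol, as the rows Lifr, Il6st, Jak1, Jak2, Stat3, Socs2, Socs3, Pim1 and Pim3 of a table of 17817 genes, and 9 of 9 had a row. The study sequenced the transcriptomes of mouse embryonic stem cells (mESCs), pluripotent cells grown from early embryos, in 1 wild-type and 1 Setd2 knockout library. Both were of mixed 129SV/C57BL/6 strain and at passages 10 to 12. Both were grown on feeder cells, moved onto gelatin to reduce these, and given no specific treatment. The sources used here do not say how Setd2 was disrupted, whether each genotype was 1 clone, or whether LIF was added to the medium.

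LIF binds the receptor chain encoded by Lifr, which pairs with the shared signalling chain gp130 encoded by Il6st. The Janus kinases bound to these chains phosphorylate STAT3, which then enters the nucleus and activates its targets. In mESCs this route sustains self-renewal, and Socs3, itself a STAT3 target, feeds back to shut off the receptor complex.

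Depth was 56129838 read equivalents for the wild type and 52041677 for the knockout, where 1 read equivalent is 76 sequenced bases over a gene. Levels are scaled to a total of 1000000 of these (CPM), so that 1 CPM stood for 56.1 and 52.0 read equivalents. Setd2, the targeted gene, had 452 CPM in wild-type and 174 CPM in knockout cells. All 11 embryonic stem cell markers listed were above 1 CPM on average, with Pou5f1 at 558 and 544 CPM. With 1 library per genotype there is no replicate and no test. The intervals below are 95% intervals for counting error alone. Without molecular identifiers reads may repeat a molecule, so even for that error the intervals may be too narrow. They do not cover differences between cultures or clones.

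Across the pathway, Lifr stood apart from the other members and the rest lay close together in the 2 libraries. None of the 9 genes, a count of 0, differed by 2-fold, against 3.87% of the 13523 genes averaging at least 1 CPM that were at least 2-fold apart. At 1.5-fold 1 of 9 was lower in the knockout library, Lifr, and 0 were higher, against 6.77% of all genes lower and 7.42% higher. The median log2 fold (knockout over wild type, with 0.5 CPM added to both) was -0.17 for the 9 genes and 0.05 for all genes compared. Of the 9, 7 had a log2 fold below 0, against 43.6% of all genes. All 9 passed the floor of 1 CPM, and each had a mean of at least 15 CPM. Among the 8114 genes at or above that level, a value picked after the data were seen, 2.18% were at least 2-fold apart in either direction and 5.47% at least 1.5-fold lower in knockout cells.

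**Figure D1:**
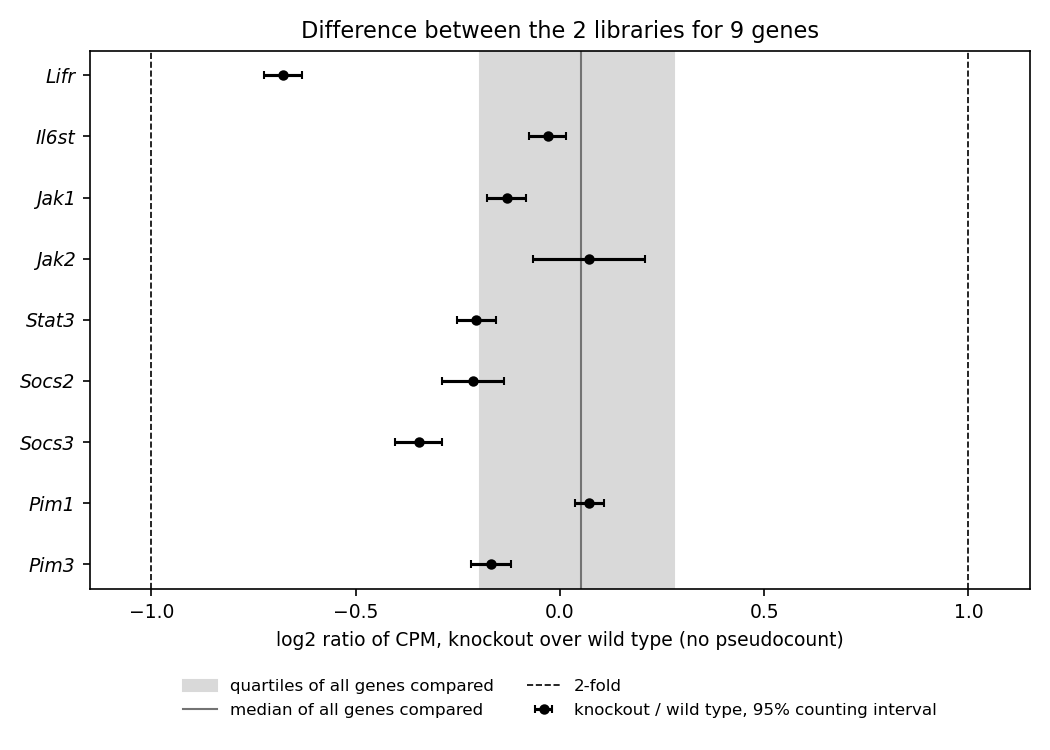
The log2 ratio of CPM, knockout over wild type and without a pseudocount, is plotted for each of the 9 genes, with bars for the 95% counting interval. The grey band and line are the quartiles and median of the log2 fold of all 13523 genes compared, and dashed lines mark 2-fold. Lifr, at 62.5% of the wild-type level, lies farthest from the band, and no gene reaches a dashed line.

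The receptor genes differed from each other. Lifr (gene number 16880, chromosome 15, 7090542 to 7141218, + strand, mm9) encodes the chain that binds LIF itself. It was at 186 CPM in wild-type cells (182 to 190) and 116 CPM in knockout cells (113 to 119). The knockout level was 62.5% of the wild-type level (60.5 to 64.5%), a log2 fold of -0.68. Il6st (gene number 16195, chromosome 13, 113254278 to 113297068, + strand) encodes gp130, the chain shared by the receptors of the interleukin-6 family. It was at 144 CPM in wild-type cells (140 to 147) and 141 CPM in knockout cells (137 to 144), with a ratio of 98.0% (94.9 to 101%). The counting interval of Il6st held equal levels, while that of Lifr lay far below them.

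The balance of these chains in RNA thus differed between the libraries. The ratio of Lifr to Il6st in the knockout library was 0.638 times that in the wild-type library (0.610 to 0.667), a value that does not depend on how the libraries are scaled to each other. Per kilobase of exon the ratio of Lifr to Il6st was 1.85 in wild-type and 1.18 in knockout cells. Those values rest on the 3653 exon bases of Lifr inside the span its row gives. With the whole gene model of 10330 exon bases they were 0.653 and 0.417, so which chain was higher per length depends on the model. The total over the gene does not tell the membrane form of the receptor from its soluble form, which is made from the same gene. Both chromosomes had medians near that of all genes, 0.04 for chromosome 15 and 0.12 for chromosome 13.

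Primitive endoderm markers stood lower in the knockout library beside Lifr, and fibroblast markers went both ways. The trophectoderm markers were too few and too low to give a direction. In a bulk library fewer cells of a type and less RNA per cell cannot be told apart. Of 13 primitive endoderm markers listed, 9 were compared and 9 of 9 had a log2 fold below 0, against 43.6% of all genes. At least 2-fold lower were 7, against 2.11% of all genes, and the summed level of the list was 503 against 206 CPM. Lama1 (214 and 109 CPM) and Col4a1 (111 and 42.9 CPM) made up much of that sum. The largest differences among these markers were those of Cubn (-3.62), Gata6 (-2.16), Pdgfra (-1.50) and Col4a2 (-1.37). Col4a1 and Col4a2 lie on chromosome 8, and without chromosomes 8 and Y 5 markers were at least 2-fold lower. Gata6 (6.00 and 0.953 CPM) and Sox7 (2.81 and 0.788 CPM) passed the floor only through their wild-type level. At a floor of 5 CPM, which leaves both out, 5 markers were at least 2-fold lower. Afp was listed at 0 in both libraries, and Sox17 and Foxa2 were below 1 CPM. Of 21 fibroblast markers, standing for feeder cells, 17 were compared and 11 had a log2 fold below 0, with a median of -0.19 and a summed level of 229 and 201 CPM. A difference of 1.5-fold or more was seen downward for 4 of these 17 and upward for 3, against 6.77% and 7.42% of all genes. The farthest apart were Ccl2 (-1.26), Prrx1 (-1.01), Lox (-0.82) and Cnn1 (0.70). Fap and Lum, which mark fibroblasts, were at under 0.1 CPM in both libraries, Lum being listed at 0 in the knockout library. Of 5 trophectoderm markers 2 were compared, Cdx2 (1.67) and Eomes (0.31), with a summed level of the list of 8.52 and 12.5 CPM. Cdx2, at 0.539 CPM in wild-type and 2.80 CPM in knockout cells, passed the floor only through its knockout level. Hand1, at 0.962 and 0.806 CPM, fell below the floor and had a log2 fold of -0.16. Among the stem cell markers 8 of 11 were below 0, with a median of -0.14 and Zfp42 (-2.05), Utf1 (-0.77), Nr0b1 (-0.67) and Nanog (0.49) farthest apart. Zfp42 lies on chromosome 8, whose 719 genes had a median of -0.35, and 55% of its windows of read length also match elsewhere in the genome. The part of these cell types in the level of Lifr was not tested.

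The kinase genes were close in both libraries. Jak1 (gene number 16451, chromosome 4, 100824579 to 100937887, - strand) encodes the kinase on which gp130 signalling mainly relies. It was at 142 CPM in wild-type cells (139 to 146) and 130 CPM in knockout cells (127 to 133), 91.3% of the wild-type level (88.4 to 94.4%). Jak2 (gene number 16452, chromosome 19, 29326318 to 29387570, + strand) encodes a second kinase that binds gp130. It was at 15.6 CPM (14.6 to 16.7) and 16.4 CPM (15.3 to 17.5), a ratio of 105% (95.5 to 116%). The interval of Jak2 held equal levels and is the widest of the 9, since it rests on 877 and 854 read equivalents. Per kilobase of exon Jak1 was 6.35 times Jak2 in wild-type and 5.52 times in knockout cells.

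Stat3 (gene number 20848, chromosome 11, 100748124 to 100800825, - strand), the transcription factor that LIF activates, was slightly lower in the knockout library. It was at 147 CPM in wild-type cells (144 to 150) and 128 CPM in knockout cells (125 to 131), 86.8% of the wild-type level (84.0 to 89.7%). Its activity depends on phosphorylation, which RNA levels do not measure. Stat3 lies beside Stat5a and Stat5b on chromosome 11, and these neighbours had log2 folds of 0.09 and -0.49 against -0.20 for Stat3. The counting interval of Stat5a held equal levels (107%, 90.9 to 126%), while that of Stat5b did not (70.7%, 64.8 to 77.1%).

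Of the inhibitors, Socs3 was the member second farthest from equal levels. Socs3 (gene number 12702, chromosome 11, 117827393 to 117830476, - strand) encodes the protein that binds gp130 and blocks the Janus kinases. It was at 104 CPM in wild-type cells (101 to 107) and 81.7 CPM in knockout cells (79.3 to 84.2). This was 78.7% of the wild-type level (75.6 to 81.9%), a log2 fold of -0.34. Relative to Stat3, Socs3 in the knockout library was 0.907 times its wild-type proportion (0.861 to 0.955). Socs2 (gene number 216233, chromosome 10, 94874676 to 94879455, - strand) encodes a relative that is best known for limiting growth hormone signalling. It was at 55.9 CPM (53.9 to 57.9) and 48.2 CPM (46.3 to 50.1), 86.3% of the wild-type level (81.8 to 90.9%). Of 20 windows of read length along Socs2, 7 also matched chromosome 12 or 15 with at most 2 mismatches, so its level is uncertain. None of the windows of Lifr, Il6st, Jak1, Jak2, Stat3, Socs3 or Pim3, a share of 0%, matched elsewhere in this way.

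STAT dimers bind the palindrome TTCNNNGAA, in which N is any base. Among promoters in RefSeq (build GRCm38.p6, 250 bases before to 50 after each start), 8.30% of 32851 held it, and 9.55% of 27025 genes had it in at least 1 promoter, read on both strands at once because it is its own reverse complement. Of the 9 genes 8 had a promoter there, and Socs3 was the 1 with a match. It is shown 5′ to 3′ up to the start, with the match in capitals. Its first base lies 154 bases before the start.
Socs3 (chr11:117969367-117969616, - strand): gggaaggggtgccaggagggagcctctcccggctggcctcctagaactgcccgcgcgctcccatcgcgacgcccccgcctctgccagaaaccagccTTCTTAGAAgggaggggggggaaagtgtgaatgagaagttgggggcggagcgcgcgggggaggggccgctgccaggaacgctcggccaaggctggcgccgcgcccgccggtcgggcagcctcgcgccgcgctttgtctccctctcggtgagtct
The other 7 genes had no such letters in this window, which says nothing about sites outside it.

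The Pim genes are STAT3 targets that encode survival kinases, and of the pair among the members Pim3 was the lower one in the knockout relative to the wild type. Pim1 (gene number 18712, chromosome 17, 29627990 to 29632404, + strand) was at 233 CPM in wild-type cells (229 to 237) and 245 CPM in knockout cells (241 to 250). The ratio was 105% (103 to 108%), the highest of the 9, though not resolved from that of Jak2 (105%, 95.5 to 116%). Pim3 (gene number 223775, chromosome 15, 88692624 to 88696156, + strand) was at 132 CPM (129 to 135) and 117 CPM (114 to 120), 89.0% of the wild-type level (86.0 to 92.1%). The ratio of Pim1 to Pim3 in the knockout library was 1.18 times that in the wild-type library (1.13 to 1.23). For Pim1, 6 of 20 windows also matched a place on chromosome 6, and 26.9% of its exon bases lie opposite the noncoding gene Gm16912, so its level is uncertain. The third family member, Pim2, was counted among the other targets below. It was the 1 Pim gene past 2-fold, at 24.7 CPM in wild-type and 54.8 CPM in knockout cells, a ratio of 222% (208 to 237%). Pim2 lies on the X chromosome, where the median log2 fold was 0.17, and 25% of its windows matched elsewhere.

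Counting intervals left out equal levels for 7 of the 9 genes, all but Il6st and Jak2. With the knockout library rescaled, by the median ratio, the trimmed mean or the upper quartile, that of Il6st left them out too (ratios of 94.3%, 93.9% and 95.7%), and with the median ratio and the trimmed mean that of Pim1 held them (101% for both). Without rescaling, the intervals of 81.3% of the 8114 genes averaging 15 CPM or more left out equal levels. At this depth such an interval therefore separates most well-expressed genes of the 2 libraries, and the share among the members is close to that background.

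**Figure D2:**
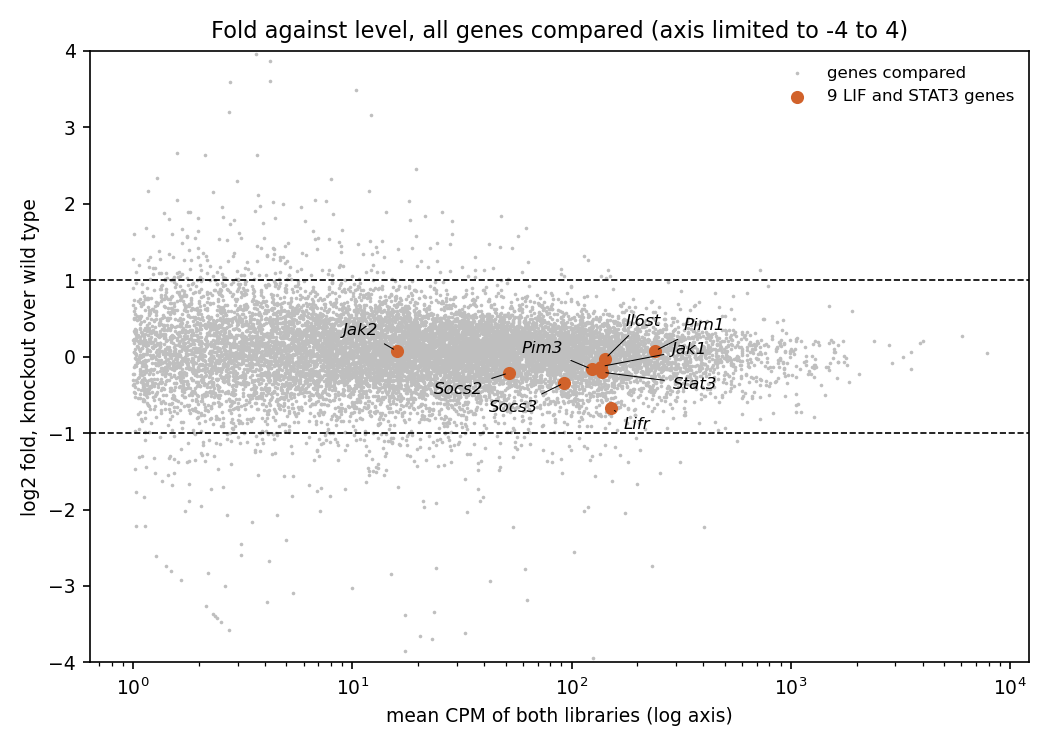
Each point is 1 of the 13523 genes compared, by mean CPM (log axis) and log2 fold, knockout over wild type. The 9 genes are in orange, dashed lines mark 2-fold, and 27 genes lie beyond the plotted range. Lifr, at -0.68, has the lowest fold of the 9, and Jak2 lies well to the left of the other members.

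The order of levels was read per kilobase of exon, since total levels favour long transcripts. In the wild-type library Pim1 was highest at 134 CPM per kilobase, above 97.1% of 12788 genes compared that way, followed by Pim3 at 54.5, Lifr at 50.9, Socs3 at 41.1 and Il6st at 27.6. Socs2 at 20.2, Jak1 at 19.7 and Stat3 at 18.9 CPM per kilobase followed, and neighbours among these 3 had overlapping counting intervals. Jak2 was lowest at 3.11 CPM per kilobase, above 28.6% of the genes. In the knockout library Pim1 was again highest at 141 CPM per kilobase, Pim3 was at 48.5, and Socs3 at 32.3 and Lifr at 31.8 had overlapping intervals. Il6st at 27.0, Jak1 at 18.0, Socs2 at 17.5, Stat3 at 16.4 and Jak2 at 3.26 CPM per kilobase followed. Lifr thus went from the third place to the fourth, below Socs3 by less than the counting intervals resolve. With whole gene models Lifr stood at 18.0 and 11.3 CPM per kilobase and Socs2 at 5.86 and 5.06, so their places are uncertain.

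**Figure D3:**
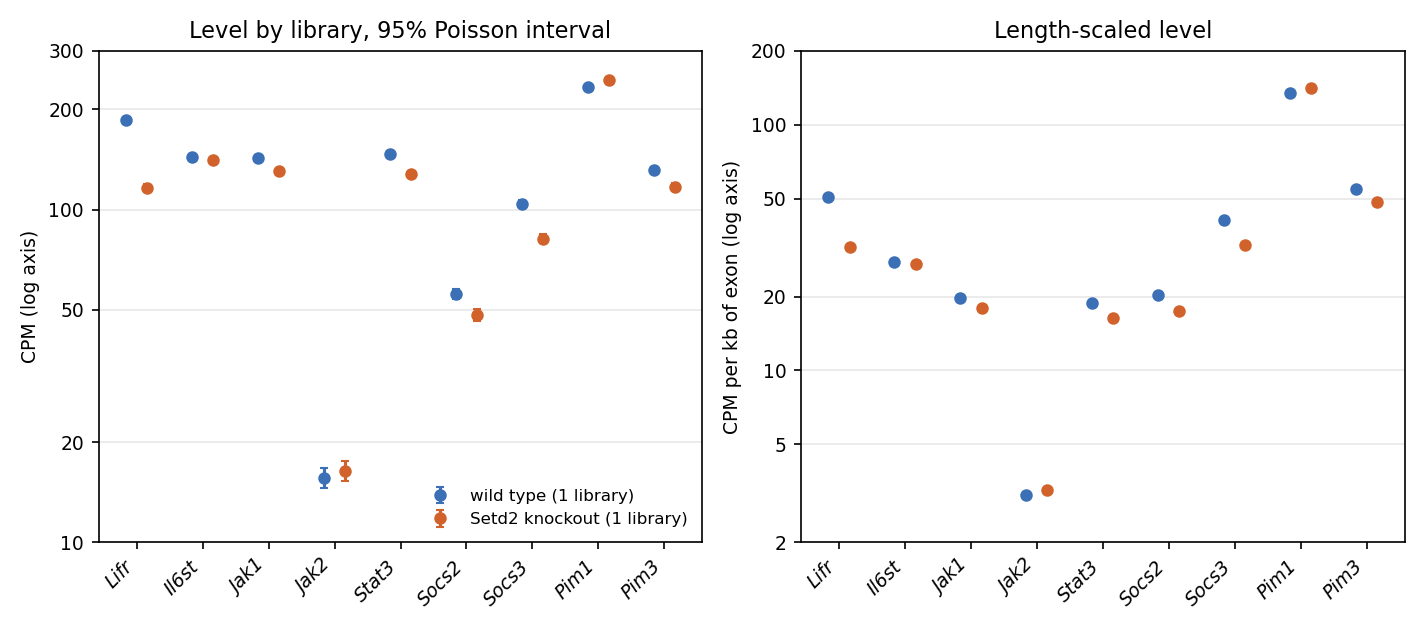
The left panel plots the level of each of the 9 genes in CPM on a log axis, with bars for the 95% Poisson interval, most of them smaller than the symbols. The right panel plots CPM per kilobase of exon on a log axis, without intervals. Blue is the wild-type and orange the knockout library, 1 library each, and Pim1 is highest and Jak2 lowest in both panels.

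The gene of the ligand itself was lower in the knockout library. Lif (chromosome 11, 4157571 to 4172517) was at 11.1 CPM in wild-type cells and 5.74 CPM in knockout cells, 51.6% of the wild-type level (44.8 to 59.3%), a log2 fold of -0.90. Feeder cells are a known source of LIF protein, and the fibroblast markers given above had a median of -0.19. Their part in the level of Lif was not tested. The related cytokine genes Osm (0.232 and 0.135 CPM), Il6 (0.578 and 0.192 CPM) and Il11 (0.369 and 0.259 CPM) were below 1 CPM in both libraries. Of 14 listed ligands and other receptors of the family 8 were compared, and 7 of these 8 had a log2 fold below 0, with a median of -0.24 and 0 past 2-fold, where 2.11% of all genes were lower by that much and 1.76% higher. Il27ra (-0.51) lies on chromosome 8, and without chromosomes 8 and Y the median was -0.16. Osmr, which pairs with gp130 to bind oncostatin M and lies near Lifr on chromosome 15, had a log2 fold of -0.42 (68.4%, 49.7 to 92.6%). The 1 gene above 0 was the ligand gene Cntf, at 59.2 and 70.8 CPM (0.26), named after its value was seen. However, 78.9% of its exon bases are shared with Zfp91 on the same strand, so its level cannot be told from that gene's.

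The other kinases and STAT genes were mixed, with 4 of 8 above 0 and a median of 0.03. Jak3, a kinase best known in lymphocytes, was the 1 gene past 2-fold, at 33.4 and 8.64 CPM (25.9%, 23.3 to 28.7%). It lies on chromosome 8 and shares 7.66% of its exon bases with Insl3, so that without chromosomes 8 and Y no gene of the list, a count of 0, was past 2-fold. Stat2, which carries interferon signals, had a log2 fold of 0.28, and Stat5b had a log2 fold of -0.49. Per kilobase of exon in the wild-type library, Stat3 was at 18.9 CPM against 12.9 for Stat2. On that scale Jak1 at 19.7 CPM was the highest Janus kinase, and Jak3 at 6.34 and Tyk2 at 6.11 lay close together below it.

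The other inhibitors stood nearest to equal levels. Of 14 listed SOCS, PIAS and phosphatase genes 13 were compared, 0 were past 2-fold or 1.5-fold, and the log2 folds ran from -0.23 to 0.28 with a median of 0.02. The extremes were Ptpn11 (-0.23), which encodes the phosphatase SHP2 that docks on gp130, and the PIAS gene Pias2 (0.28). Pias1 (0.18) and Socs5 (0.14) followed. Socs1 was below 1 CPM in both libraries, at 0.945 and 0.585 CPM.

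Other genes known as STAT3 or LIF targets spread more widely than the 9 members. Of 19 listed 17 were compared, and 3 were lower and 1 higher by at least 2-fold, against 2.11% of all genes lower and 1.76% higher. Below 0 were 12 of the 17, against 43.6% of all genes, with a median of -0.36. The lower genes were Bcl3, a nuclear factor of the NF-kappaB family (30.2 and 14.5 CPM, -1.03), the AP-1 gene Junb (24.2 and 11.7 CPM, -1.01) and the homeobox gene Gbx2 (51.4 and 25.2 CPM, -1.01). All 3 lay just past the threshold, and with 1 CPM added in place of 0.5 the count was 1. Junb lies on chromosome 8, and 32.3% of the exon bases of Gbx2 lie opposite another gene. The remaining targets compared are named after their values were seen. Smad7 (-0.86), Myc (-0.76), Sall4 (-0.48), Klf5 (-0.45), Klf4 (-0.36), Zfp36 (-0.36), Cebpd (-0.27), Cebpb (-0.12) and Ier3 (-0.08) were below 0. Irf1 (0.67), Icam1 (0.41), Bcl6 (0.35) and Mcl1 (0.18) were above 0. Klf4 and Klf5, which act in the naive pluripotency network, were at 246 and 262 CPM in the wild-type and both at 192 CPM in the knockout library. Most of the targets compared, 12 of 17, were therefore below 0, but not all shared that direction.

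The STAT palindrome was found in the promoter windows of 4 of the 14 targets with a RefSeq promoter, a share of 28.6% against 9.55% of all genes with a promoter there. The primitive endoderm markers had the same share, with 2 of 7 genes. The targets were Bcl6, Icam1, Irf1 and Zfp36. Their log2 folds were 0.35, 0.41, 0.67 and -0.36. They are shown to set beside that of Socs3, 5′ to 3′ up to the start, with the matches in capitals (RefSeq, GRCm38.p6). For Bcl6 the window holds 3 matches and belongs to the downstream one of the 2 starts listed, and the window of the upstream start, not shown, also held a match.
Bcl6 (chr16:23981284-23981533, - strand): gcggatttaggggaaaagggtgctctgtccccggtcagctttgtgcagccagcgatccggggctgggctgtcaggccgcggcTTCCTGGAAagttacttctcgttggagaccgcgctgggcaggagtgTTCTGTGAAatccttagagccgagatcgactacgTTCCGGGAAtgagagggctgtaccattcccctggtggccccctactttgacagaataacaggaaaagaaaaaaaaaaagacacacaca
Icam1 (chr9:21015690-21015939, + strand): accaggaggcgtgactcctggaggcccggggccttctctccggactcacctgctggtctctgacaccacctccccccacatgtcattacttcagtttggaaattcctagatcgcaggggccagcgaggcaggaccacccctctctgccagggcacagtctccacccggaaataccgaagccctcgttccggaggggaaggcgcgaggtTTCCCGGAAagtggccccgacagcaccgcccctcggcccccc
Irf1 (chr11:53769764-53770013, + strand): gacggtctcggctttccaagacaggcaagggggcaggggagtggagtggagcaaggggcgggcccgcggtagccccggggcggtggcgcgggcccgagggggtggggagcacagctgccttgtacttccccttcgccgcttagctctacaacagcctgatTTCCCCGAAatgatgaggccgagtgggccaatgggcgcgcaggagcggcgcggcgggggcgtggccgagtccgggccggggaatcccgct
Zfp36 (chr7:28379229-28379478, - strand): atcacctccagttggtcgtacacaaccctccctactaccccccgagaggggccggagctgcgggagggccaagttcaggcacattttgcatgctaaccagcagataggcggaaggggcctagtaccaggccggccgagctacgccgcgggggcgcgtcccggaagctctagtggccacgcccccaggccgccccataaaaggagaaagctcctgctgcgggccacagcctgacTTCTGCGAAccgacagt
Bcl3, Gbx2 and Junb, the 3 lower targets, and Pim2, the higher one, had no match in their windows. A match is a stretch of letters and not a measured binding site.

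Immediate early genes, which growth factors and cytokines induce within minutes, stood far lower than the members. Of 13 listed 8 were at least 2-fold lower and 0 higher, against 2.11% of all genes lower and 1.76% higher. The median was -1.20 and the summed level 881 against 403 CPM, with 11 genes below 0 and 2 above. On chromosome 8 lie 2 of the 13, and without chromosomes 8 and Y 6 were at least 2-fold lower. Egr3 (2.31 and 0.408 CPM), named after its value was seen, passed the floor only through its wild-type level. At a floor of 5 CPM 6 genes of the list were at least 2-fold lower. Fosb (-3.65), Fos (-2.78), Egr2 (-2.08) and Egr1 (-1.67) were farthest apart. Junb and Zfp36 belong to this list and to the STAT3 targets. Socs3, also induced quickly, had a log2 fold of -0.34 and Pim1 0.07. The part of this difference in the levels of Socs3 and the other targets was not tested.

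**Figure D4:**
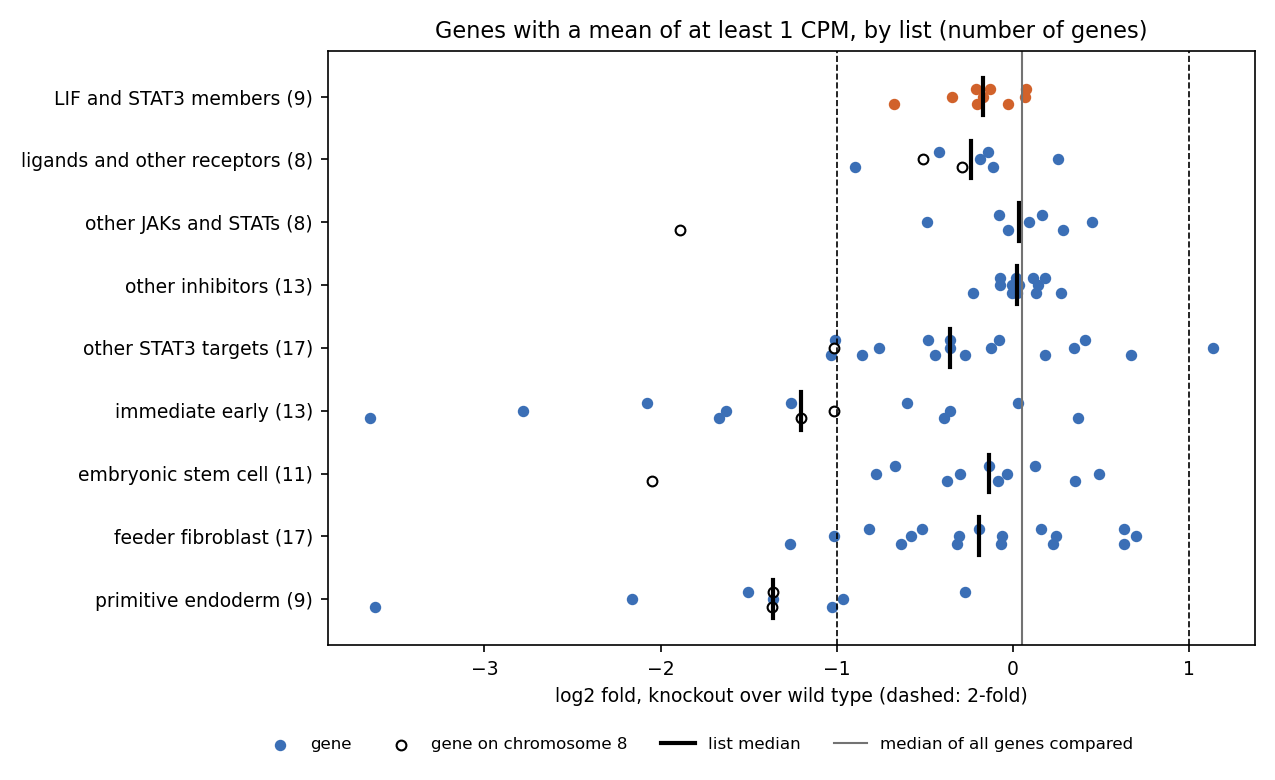
Each point is the log2 fold, knockout over wild type, of 1 gene averaging at least 1 CPM, in the list named at the left with its number of genes. Open symbols lie on chromosome 8, black bars are list medians, the grey line is the median of all genes and dashed lines mark 2-fold. The members (median -0.17) and the other inhibitors (0.02) lie close to 0, the STAT3 targets (-0.36) spread on both sides, and the immediate early (-1.20) and primitive endoderm (-1.36) lists lie lowest.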

How the data were processed

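Total RNA of 2 libraries was sequenced, and each column of the deposited table was taken to its genotype by name. The submitters' processing notes name mm9 as the build and TopHat 1.0.13 and CASAVA 1.6.0 as tools, without their roles. The header of the table calls its columns RPKM, but the deposited values are on a log2 scale. Here they are taken as log2(x + 1), with x the gene's sequenced bases divided by 76. Of x above 0 and under 200, 85.9% and 85.7% were whole multiples of 1 base, within 0.05 of a base. The sources used here do not say whether strand was used or how reads with several alignments were counted.

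The logarithm was undone and each library was scaled to a total of 1000000. A symbol on several rows took its highest row. Levels have exact Poisson intervals, and ratios exact conditional binomial intervals, for counting error only. Ratios between members were computed for 6 pairs. Exon bases come from GENCODE on NCBIM37, the assembly of mm9, inside each row's span, and 20 windows of 76 bases per gene were aligned back with minimap2 2.31, allowing 2 mismatches. The procedure was tested on simulated libraries that held counting error alone, which says nothing about differences between cultures or clones. Alternatives were pseudocounts of 0.1 and 1 CPM, a floor of 5 CPM or none, a threshold of 1.5-fold, 3 rescalings and summed rows. The members and lists were chosen with earlier results of these data known. Named were the members, Setd2, Lif, Il6, Il11, Osm and up to 4 genes per list with the largest absolute fold at a mean of 1 CPM or more. Some listed genes are counted but not reported by name here. Other genes in the text are marked as named after their values were seen, except marker and family genes given as context.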

Additional observations from a re-analysis of the deposited data

How the results depend on the processing

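Leaving out chromosomes 8 and Y was chosen after the results were seen. The 5 genes compared on chromosome Y had a median log2 fold of 6.20, and the 719 on chromosome 8 one of -0.35. The 2 libraries thus differed in RNA from chromosome Y as well as in genotype. The part of this in the other differences was not tested. No paired analysis was possible because there is 1 library per genotype, which also means that none could be left out. Every member kept the sign of its log2 fold in all settings run, of which only the 3 rescalings could change it. With the median log2 ratio set to 0 the folds were -0.73 for Lifr, -0.26 for Stat3, -0.22 for Pim3, -0.18 for Jak1, -0.084 for Il6st and 0.018 for Pim1. With the trimmed mean they were -0.74 for Lifr, -0.40 for Socs3, -0.26 for Stat3, -0.23 for Pim3, -0.19 for Jak1, -0.091 for Il6st and 0.011 for Pim1. These 2 rescalings moved all folds by -0.054 and -0.061, more than the counting intervals of those genes. The members' median was -0.22 and -0.23 and that of the stem cell markers -0.19 and -0.20 in these settings, and the latter -0.17 with the upper quartile. At 1.5-fold the numbers lower were 916 of all genes, 1 member, 1 ligand or receptor, 5 STAT3 targets, 3 stem cell markers and 4 fibroblast markers, and the numbers higher were 1004 of all genes, 3 fibroblast markers and 2 STAT3 targets, as a lower threshold implies. At a floor of 5 CPM, with fewer genes tested, 108 of all genes were higher, 0 fibroblast markers were lower and 0 trophectoderm markers higher. The trophectoderm median was 0.31 with that floor and with none. With a pseudocount of 1 CPM, 1 fibroblast marker and 1 STAT3 target were at least 2-fold lower. Without chromosomes 8 and Y the numbers at least 2-fold lower were 0 stem cell markers and 0 other kinases and STAT genes. For the primitive endoderm markers the number was 5, for the immediate early genes 6 and for the STAT3 targets 2. Of 81 recomputed folds of members 68 moved by less than their counting interval. Many of these could not move, since the floors, the summed rows and leaving out chromosomes 8 and Y do not touch a member's fold. The 13 that moved by more all came from the median ratio and the trimmed mean. Depth limits Jak2 most, and the single library per genotype limits every difference.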
